A study of Homo sapiens with 6 samples.

Results

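Antisense transcripts are RNAs read from the DNA strand opposite a known gene. In the deposited table of reads per gene, 3603 of 29845 genes were typed antisense by the authors, and 281 of these had at least 600 reads summed over the 6 libraries. These 281 well-measured antisense genes are described here. They were selected on their summed reads, so their abundance is a description and was not tested. The libraries came from the cell line A549, which grew from a human lung carcinoma and keeps epithelial features, and the study asked how the transcriptome responded to the mitochondrial transcription factor TFAM. The 3 control libraries were from cells transfected with the empty plasmid pIRES-hrGFP-1a, and the 3 libraries labelled TFAM-OE from cells transfected with the same plasmid carrying TFAM with a FLAG tag. The plasmid, and so its GFP, was shared by both groups. The transfection was transient and the libraries are bulk RNA, so fewer cells carrying a transcript and less of it per cell cannot be told apart. The methods call the 3 libraries of a group biological replicates, and the p-values measure the spread between them.

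Many antisense RNAs start at the promoter of a coding gene and run away from it (head to head), whereas others lie within the body of the coding gene. Some are known to act on the neighbouring gene, some carry small nucleolar RNAs (snoRNAs) in their introns, and for most no role is known. To keep an antisense read apart from a read of the coding gene across shared bases, both the library and the counting must keep the strand. The labels name a stranded library kit, whereas the use of strand in counting is not given in the sources used here. Where exons are shared, a read of a gene and a read of its antisense partner therefore cannot be told apart in these counts, and each antisense gene is set beside its coding gene.

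The counts summed to between 26650854 and 37321956 reads per library, and the 281 antisense genes took between 0.414% and 0.465% of them, which is most of the 0.535% to 0.595% that all antisense genes took. The level of TFAM itself was 73.0 ± 2.97 CPM (reads scaled to library size; mean ± SD, n = 3) in controls and 77.4 ± 5.58 CPM with the TFAM label. The groups overlapped, and the log2 fold change was 0.08 ± 0.10 (SE), with an adjusted p of 0.623 from edgeR's quasi-likelihood test. The study reports TFAM overexpression from a western blot against the FLAG tag, which measures protein and not RNA. Of 9 genes fixed as markers of A549 cells, 7 had a median FPKM (a level per transcript length and library depth) above 1, and of the markers fixed for immune, endothelial and fibroblast cells 0 did. The summed FPKM of the A549 markers lay between 3377 and 3475 in the control libraries and between 3678 and 3748 in the libraries labelled TFAM-OE.

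The well-measured antisense genes ranged from 600 to 57944 summed reads with a median of 1313, and the 10 with most reads held 38.8% of all their reads. The threshold fell in a dense range. MIR762HG with 604 reads and RP11-732A19.8 with 600 lay just inside it, and RP11-196G18.23 with 599 and CTD-3185P2.1 with 595 just outside. Per length, 246 of the 281 had a median FPKM above 1 and 59 a median FPKM above 10. By identifier, 275 were found in GENCODE version 44 on GRCh38, the build to which the reads had been aligned. The name there differs from that in the deposited table for 182 of these, and some have only an identifier there. GENCODE types 263 of the 275 as long noncoding RNA and 8 as protein-coding. It types 2 as transcribed unprocessed pseudogenes and 2 as transcribed unitary pseudogenes, so the antisense type used here is that of the deposited table. On this annotation 114 lay head to head with a coding gene, with starts within 1000 bases of each other on opposite strands, 153 overlapped the body of a coding gene on the other strand, and 8 did neither. At least 1 exon base faced a coding exon in 240, and 14 shared exon bases with a coding gene of their own strand, whose reads are not separated by strand.

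Of the 5 antisense genes of highest level, 3 lay opposite exons of coding genes more abundant than themselves. RP5-940J5.9 (ENSG00000269968.1), the highest, lies on the minus strand at chr12:6537794-6538370 of GRCh38, and all of its exon bases face exons of GAPDH, the glycolytic enzyme often used as a reference gene. Its FPKM was 523, 616 and 619 in the control libraries and 660, 611 and 526 in the libraries labelled TFAM-OE. Its reads were between 3.57% and 3.73% of the reads of GAPDH in every library, so both counts rose and fell together from library to library. A stretch of RP5-940J5.9 is shown to make the sharing visible. It is read 5′ to 3′ from the antisense strand at chr12:6537866-6537985, with bases that face a GAPDH exon in capitals, and here that is the whole stretch of 120 bases.
RP5-940J5.9: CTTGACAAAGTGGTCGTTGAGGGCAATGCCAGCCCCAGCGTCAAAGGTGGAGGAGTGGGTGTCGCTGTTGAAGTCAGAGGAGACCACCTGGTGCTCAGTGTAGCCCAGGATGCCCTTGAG
A fragment from this stretch carries the same bases, on the opposite strand, as a fragment of GAPDH mRNA. The log2 fold change, TFAM-OE over control, was 0.06 ± 0.14 (SE) for RP5-940J5.9 and 0.05 ± 0.14 for GAPDH.

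Of the next 4 in order of level, 2 had the same arrangement. RP11-138I1.4, opposite UBB (polyubiquitin B), had a median FPKM of 184, which was 29.3% of that of UBB. RP11-290D2.6, opposite TPT1 (the tumour protein TCTP), had 176, which was 79.6% of that of TPT1. RP4-614O4.11 had 157 and shared no exon base with the coding gene on the other strand, MMP24, whose level it exceeded, but it shares 284 exon bases with EIF6 (a translation initiation factor) on its own strand. ZFAS1, a snoRNA host gene, followed with 114 and is described below. Over the 6 libraries RP11-138I1.4 ran from 171 to 201, RP11-290D2.6 from 138 to 183, RP4-614O4.11 from 135 to 173 and ZFAS1 from 48.7 to 155, so each overlapped its neighbour in this order and only RP5-940J5.9 stood apart from the other 4. The log2 fold changes of RP11-138I1.4 (0.06 ± 0.12) and UBB (0.04 ± 0.11) lay within 1 SE of each other, as did those of RP11-290D2.6 (-0.07 ± 0.13) and TPT1 (-0.07 ± 0.13).

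For 257 of the antisense genes, a coding gene on the other strand was tested too. This pairing by position was added after the data were seen. In 33 of these pairs all exon bases of the antisense gene faced exons of the coding gene, to within 0.05%. In them the antisense FPKM had a median of 19.4% of that of the coding gene and ran from 1.77% to 186%. The log2 fold changes of both genes had the same sign in 28 of the 33 and differed by a median of 0.053. Sorted by the share of antisense exon bases that faced exons of the coding gene, the pairs fell into 48 with no shared base, 98 with a share under 25%, 59 from 25% to 75% and 52 with 75% or more. The median level of the antisense genes was 2.51, 2.12, 5.36 and 10.1 FPKM in this order, and that of their coding genes was 11.1, 13.3, 24.3 and 47.9 FPKM.

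**Figure D1:**
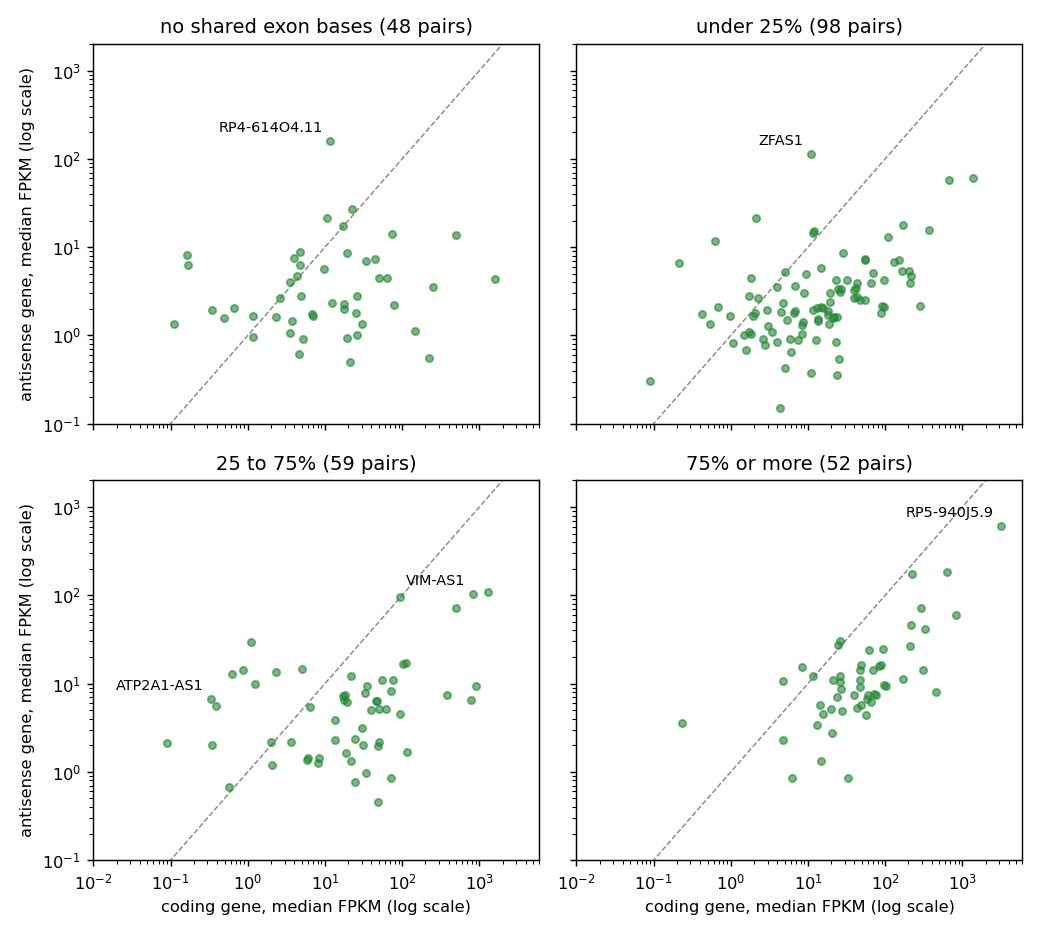
Each point is a well-measured antisense gene, with its median FPKM over the 6 libraries (vertical, log scale) against that of the coding gene on the other strand (horizontal, log scale), in 4 panels by the share of antisense exon bases that face coding exons. The dashed line marks equal levels. With 75% or more shared, all but 6 of 52 points lie below the line and the points rise together, and with no shared base 17 of 48 lie above it.

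The levels of antisense and coding genes followed each other most closely where most bases were shared. Pearson's r of the log2 FPKM was 0.12 over the 48 pairs with no shared base, 0.45 under 25%, 0.32 from 25% to 75% and 0.68 at 75% or more. The difference between the log2 fold changes of the 2 genes of a pair had a median size of 0.22 with no shared base, 0.20 under 25%, 0.091 from 25% to 75% and 0.074 at 75% or more. The median SE of the antisense log2 fold change differed little between these groups, at 0.16, 0.16, 0.15 and 0.15. The difference also carries the error of the coding gene, which was not summarised by group. Pearson's r of the log2 fold changes was 0.40, 0.47, 0.68 and 0.68 in the same order. Without JHDM1D-AS1 the value with no shared base was 0.26. The value from 25% to 75% rested on AP001610.5, without which it was 0.03, whereas that at 75% or more was 0.61 without its most extreme gene, CTC-250I14.6. The antisense levels come from the same reads by which these genes were selected, so low antisense levels are cut off and this bears on the correlations of level. These values are across pairs of genes measured in the same 6 libraries, the pairs are not independent, and they are given as a description.

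The log2 fold change of the 281 antisense genes had a median of 0.012, with -0.008 over the 16555 genes tested and 0.008 over the 11893 genes of any type with at least 600 reads. Most stayed near this value, and 179 of the 281 lay within 0.25 of no change. In edgeR's quasi-likelihood test, adjusted by Benjamini-Hochberg over all 16555 genes, 10 antisense genes passed as lower (3.56%) and 6 as higher (2.14%) at an adjusted p below 0.05. Of all genes tested 4.81% passed as lower and 3.48% as higher, and of those with at least 600 reads 4.92% and 4.16%. With the further requirement of a 2-fold change, the threshold of the study, 4 antisense genes were lower (1.42%) and 1 was higher (0.356%), beside 2.07% and 0.447% of all genes tested and 1.4% and 0.252% of those with at least 600 reads. All libraries of 1 group lay below all of the other in 41 antisense genes that were lower and 37 that were higher, which is 14.6% and 13.2%. That held for 15.8% of all genes tested in each direction, and for 15.6% lower and 18.2% higher of those with at least 600 reads. The shares of the antisense genes that passed, or that did not overlap, lay under or near those of all genes, and the 2-fold shares were close to those of genes with at least 600 reads in counts of 4 and 1. The 16 that passed all had groups that did not overlap, which comes from the same 6 libraries as the test and is no further support. Of the 16, AP001610.5, LINC-PINT, FBXL19-AS1 and ATP2A1-AS1 passed under each of 15 other settings of the test, and the other 12 missed the threshold in at least 1 of them. Without control replicate 1, control replicate 2 or TFAM-OE replicate 2, 5 of the 16 passed in each case. The shares of all genes that passed without these libraries are not given here.

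**Figure D2:**
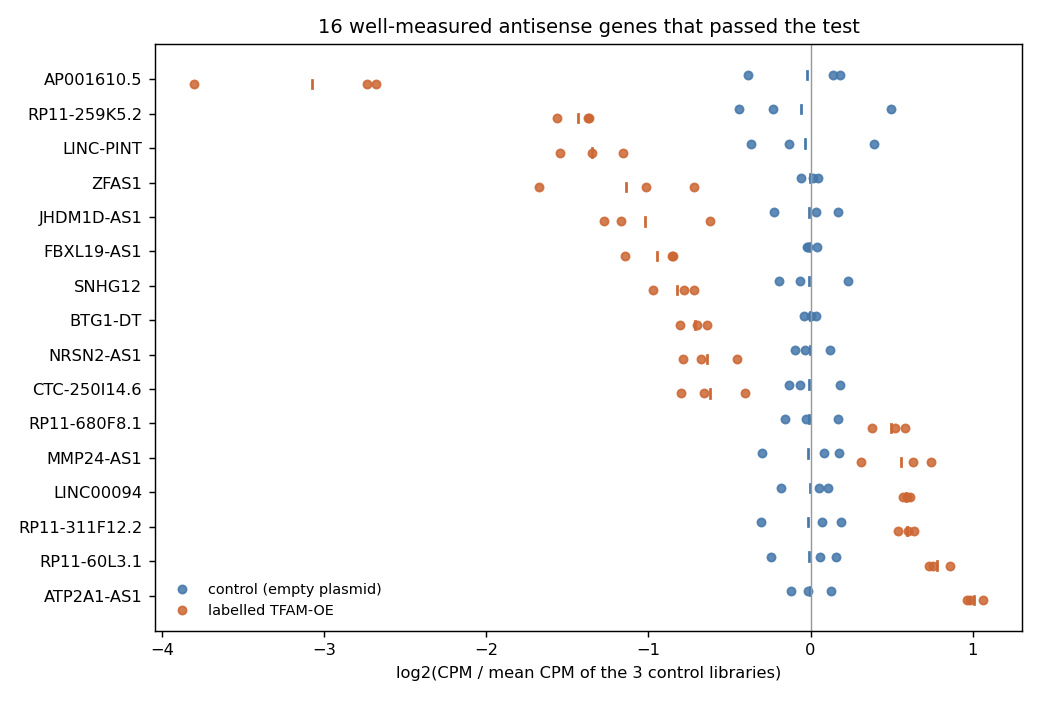
Each row is 1 of the 16 antisense genes that passed the test, and each point is a library, as the log2 of its CPM over the mean CPM of the 3 control libraries. Short bars mark the mean of the plotted points of each group of 3. Blue (control) and orange (labelled TFAM-OE) points do not overlap in any row, the upper 10 rows being lower and the lower 6 higher.

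AP001610.5 (ENSG00000228318.3) had the lowest fold change. It lies on the minus strand at chr21:41441056-41445708, within MX1, whose product is an interferon-induced GTPase that restricts viruses. Its CPM was 4.62, 6.65 and 6.85 in the control libraries and 0.941, 0.908 and 0.433 in the libraries labelled TFAM-OE, so the lowest control was above the highest of the others. The log2 fold change was -2.97 ± 0.28 (SE; adjusted p = 0.000272), and that of MX1 was -2.74 ± 0.22 (adjusted p = 0.000113). AP001610.5 had between 0.960% and 1.45% as many reads as MX1 in every library, and the ratio of both did not pass as changed (adjusted p = 0.774). It was the only well-measured antisense gene at a locus of the interferon list. Of 90 coding genes of that list that were tested, 86 passed as lower and 0 as higher, with a median log2 fold change of -1.72. Over all genes tested 4.81% passed as lower and the median was -0.008. The list was written with earlier results of these data known, so these values are a description. The stretch at chr21:41445511-41445630, 5′ to 3′ on the antisense strand, spans the edge of an MX1 exon, with bases facing the exon in capitals and bases of the MX1 intron in lower case.
AP001610.5: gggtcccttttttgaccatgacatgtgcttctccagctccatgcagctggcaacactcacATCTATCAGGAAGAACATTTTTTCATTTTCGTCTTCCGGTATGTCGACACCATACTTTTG
Of its exon bases 39.1% face MX1 exons and the rest lie opposite MX1 introns, where spliced MX1 mRNA has no bases but its precursor does.

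RP11-259K5.2 (GOLGA4-AS1 in GENCODE, chr3:37241789-37244202, minus strand) spans the start of GOLGA4, which encodes a golgin of the Golgi apparatus. It had 6.43, 3.89 and 3.36 CPM in the control libraries and 1.76, 1.54 and 1.77 CPM in the libraries labelled TFAM-OE. Its log2 fold change was -1.43 ± 0.26 (adjusted p = 0.011), whereas GOLGA4 had -0.48 ± 0.27 (adjusted p = 0.303) with overlapping groups. The ratio of both did not pass as changed.

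LINC-PINT, known as a long noncoding RNA induced by p53, starts head to head with MKLN1 (muskelin) on the minus strand at chr7:130791264-131110176. Its CPM was 21.5, 14.9 and 12.7 in the control libraries, of which replicate 1 was the highest, and 7.34, 6.41 and 5.60 in the libraries labelled TFAM-OE. The log2 fold change was -1.34 ± 0.20 (adjusted p = 0.00503) and that of MKLN1 -0.40 ± 0.10 (adjusted p = 0.0433). Both fell, LINC-PINT by more, and the log2 ratio of LINC-PINT to MKLN1 changed by -0.90 ± 0.19 (adjusted p = 0.0437 by limma over all pairs by position).

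ZFAS1 (ENSG00000177410.12, plus strand, chr20:49278178-49299600) carries snoRNAs of the SNORD12 family and starts head to head with ZNFX1, a helicase that senses viral RNA. ZFAS1 had 393, 373 and 401 CPM in the control libraries and 237, 192 and 122 CPM in the libraries labelled TFAM-OE. The 3 control libraries lay close together while replicates 1 and 3 labelled TFAM-OE differed widely. The log2 fold change was -1.08 ± 0.20 (adjusted p = 0.0117), and that of ZNFX1 was -0.91 ± 0.09 (adjusted p = 0.000272). Their ratio did not pass as changed (log2 change -0.23 ± 0.21, adjusted p = 0.686), and 2.99% of ZFAS1 exon bases face exons of ZNFX1 in GENCODE version 44, which may not be the model that was counted.

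Of the other 6 that were lower, 3 lay beside a coding gene whose log2 fold change was negative too. JHDM1D-AS1 (KDM7A-DT in GENCODE), head to head with the histone demethylase gene KDM7A and sharing no exon base with it, had a log2 fold change of -0.99 ± 0.20 (adjusted p = 0.018), and KDM7A had -0.81 ± 0.23 (adjusted p = 0.0605). BTG1-DT (ENSG00000245904.3, its GENCODE symbol), head to head with the antiproliferative gene BTG1, had -0.71 ± 0.16 (adjusted p = 0.0242), and BTG1 fell with -0.63 ± 0.10 (adjusted p = 0.00694). CTC-250I14.6, whose exon bases all face the immediate early gene IER2, had -0.61 ± 0.15, and IER2 fell with -0.54 ± 0.11. Its reads were between 9.68% and 12.1% of those of IER2 in the 6 libraries.

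SNHG12, FBXL19-AS1 and NRSN2-AS1 were lower beside coding genes that were not. SNHG12, a snoRNA host gene whose end meets that of TRNAU1AP (a selenocysteine tRNA binding protein), had 11.2, 9.12 and 8.35 CPM in the control libraries and 5.80, 4.87 and 5.57 CPM in the libraries labelled TFAM-OE. Its log2 fold change was -0.82 ± 0.16 (adjusted p = 0.0147) beside 0.32 ± 0.13 for TRNAU1AP (adjusted p = 0.163), and the log2 ratio changed by -1.12 ± 0.18 (adjusted p = 0.0235). NRSN2-AS1, which overlaps the start of the neurensin gene NRSN2, had -0.64 ± 0.16 (adjusted p = 0.0434) beside 0.16 ± 0.12, and their ratio did not pass (adjusted p = 0.0768 over pairs named by symbol).

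FBXL19-AS1 (ENSG00000260852.1, minus strand, chr16:30919319-30923269) starts head to head with FBXL19, an F-box protein gene. Its CPM was 9.11, 9.08 and 9.50 in the control libraries and 5.11, 4.18 and 5.13 in the libraries labelled TFAM-OE, and its log2 fold change was -0.94 ± 0.14 (adjusted p = 0.00485). FBXL19 had 0.16 ± 0.10 (adjusted p = 0.317). The antisense reads were between 13.7% and 14.6% of those of FBXL19 in the control libraries and between 5.48% and 7.48% in the others. Only 2.48% of its exon bases face FBXL19 exons, and they lie near the start of FBXL19-AS1. Part of them, 42 bases, are in capitals in the stretch at chr16:30923111-30923230, 5′ to 3′ on the antisense strand.
FBXL19-AS1: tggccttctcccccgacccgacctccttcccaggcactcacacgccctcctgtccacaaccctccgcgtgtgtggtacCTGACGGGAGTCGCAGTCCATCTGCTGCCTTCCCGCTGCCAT

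ATP2A1-AS1 (ENSG00000260442.5, minus strand, chr16:28877938-28879938) was the only antisense gene past the 2-fold threshold upward. It spans the start of ATP2A1, which encodes the calcium pump SERCA1 of fast skeletal muscle. Its CPM was 2.71, 3.21 and 2.92 in the control libraries and 5.84, 6.16 and 5.76 in the libraries labelled TFAM-OE, so its log2 fold change was 1.01 ± 0.15 (adjusted p = 0.00425). ATP2A1 went the other way, from 80, 47 and 67 reads in the control libraries to 36, 41 and 22 reads, and its log2 fold change was -0.99 ± 0.24 (adjusted p = 0.0372). The log2 ratio of both changed by 1.96 ± 0.26 (adjusted p = 0.00417), and the antisense reads were between 114% and 183% of those of ATP2A1 in the control libraries and between 517% and 786% in the others. The opposite course was measured although 49.1% of ATP2A1-AS1 exon bases face ATP2A1 exons, as in the stretch at chr16:28879524-28879643, where capitals face the exon and lower case lies in the ATP2A1 intron.
ATP2A1-AS1: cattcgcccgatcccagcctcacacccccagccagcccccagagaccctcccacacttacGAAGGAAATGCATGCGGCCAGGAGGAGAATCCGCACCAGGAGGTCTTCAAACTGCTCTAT
The antisense gene exceeded the coding gene per length too, at a median of 6.63 beside 0.335 FPKM.

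**Figure D3:**
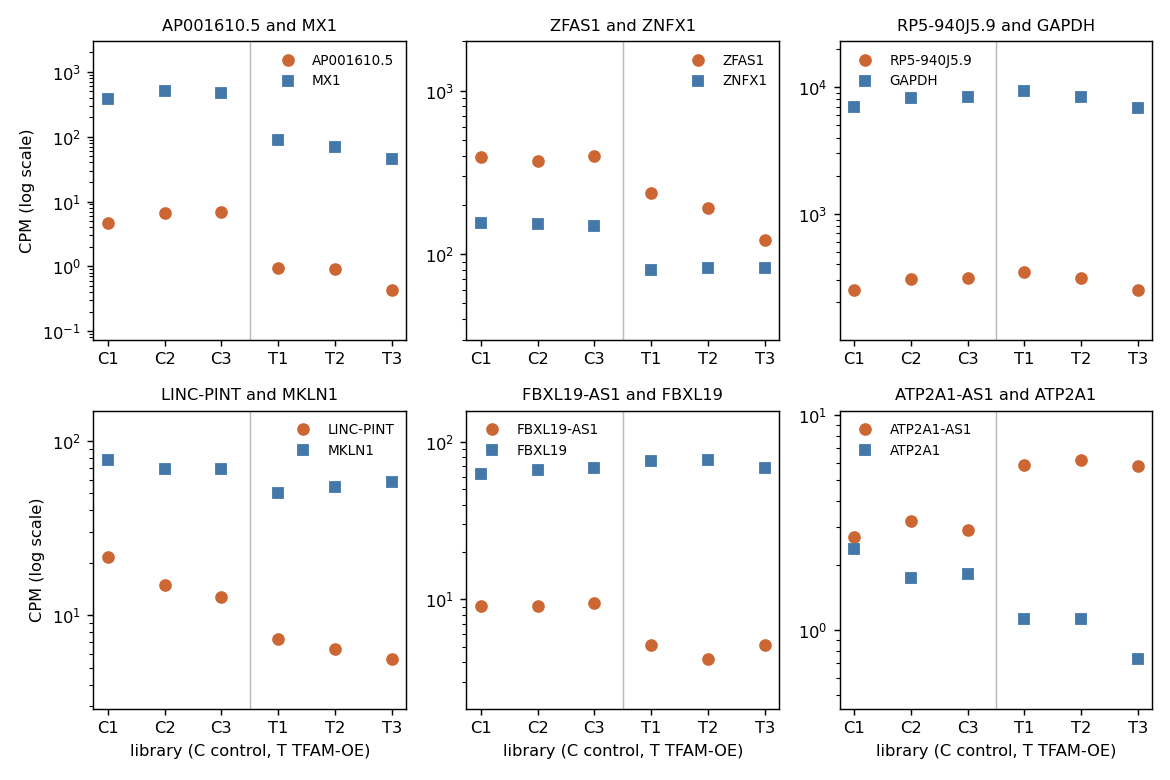
CPM (log scale) of 6 antisense genes (circles) and the coding genes on the other strand (squares) in control replicates 1 to 3 (C) and replicates 1 to 3 labelled TFAM-OE (T). In the upper row both genes of a pair had like changes between the groups. Over replicates 1 to 3 labelled TFAM-OE, however, ZFAS1 fell while ZNFX1 stayed level. In the lower row LINC-PINT fell more than MKLN1, FBXL19-AS1 fell without FBXL19, and ATP2A1-AS1 rose while ATP2A1 fell.

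The other 5 that were higher rose by less than 2-fold. RP11-311F12.2, 22.0% of whose exon bases face the aldehyde dehydrogenase gene ALDH3A1, had a log2 fold change of 0.59 ± 0.16 (adjusted p = 0.0447), and ALDH3A1 rose with 0.59 ± 0.11 (adjusted p = 0.0128). MMP24-AS1 (MMP24OS, typed protein-coding in GENCODE), opposite the membrane-type matrix metalloproteinase gene MMP24, had 0.57 ± 0.15, and MMP24 rose with 0.73 ± 0.11. LINC00094 (BRD3OS, also typed protein-coding there) had 0.59 ± 0.11 (adjusted p = 0.0149), while BRD3, a bromodomain protein gene, had 0.11 ± 0.16 with overlapping groups. RP11-680F8.1 (LCIIAR), which faces no coding gene, averaged 29.8 ± 3.4 CPM (SD, n = 3) in controls and 42.1 ± 3.0 CPM with the TFAM label, and its log2 fold change was 0.50 ± 0.12. RP11-60L3.1, whose identifier was not found in GENCODE version 44, had 0.79 ± 0.17.

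Of 88 antisense genes whose symbol names a coding gene, 86 had that gene in the table and 78 could be tested as a ratio to it. The ratio passed as changed in 2 of these 78, FBXL19-AS1 and ATP2A1-AS1, after adjustment over all 274 pairs of this kind. That is 2.56% of them, beside 2.55% (7) of all 274. The ratios next in order of p were those of NNT-AS1 to NNT, the mitochondrial transhydrogenase gene (log2 change -0.59 ± 0.14, adjusted p = 0.0756), and MAN1B1-AS1 to MAN1B1 (0.45 ± 0.12, adjusted p = 0.0913), with NRSN2-AS1 between them. That of ARRDC1-AS1 to ARRDC1 followed (-0.49 ± 0.16, adjusted p = 0.165). The named coding gene passed the test in 6 of the 78. Of all genes tested, 4.81% passed as lower and 3.48% as higher. In MMP24-AS1 and ATP2A1-AS1 the antisense gene passed too, in the first with the coding gene and in the second against it. In ARRDC1-AS1, ZNF503-AS2, PTOV1-AS2 and TBX2-AS1 it did not pass, and its log2 fold change was 0.31, -0.07, 0.37 and -0.16, beside 0.78, -0.48, 0.56 and -0.69 for the coding gene.

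With the coding gene taken by position, the ratio passed in 11 of 257 pairs, 10 with the antisense gene lower relative to the coding gene and 1 (ATP2A1-AS1) with it higher. That is 4.28%, beside 2.31% (27) of all 1169 pairs by position, and the difference was not tested. The 1169 include the 257, and the rest have antisense genes with fewer than 600 reads. The median SE of the log2 fold change was 0.30 in tested antisense genes below that threshold and 0.16 in the 281, so the shares are not at like precision. Of the 11, 2 had no shared exon base, 5 shared under 25%, 3 shared 25% to 75% and 1 shared 75% or more. Besides the 4 named above they were, chosen after their values were seen, RP4-614O4.11, CTB-25B13.12, AC009948.5, SNHG7, RP11-66N24.3, MIR762HG and CTA-29F11.1, none of which passed the test by itself. In RP11-66N24.3 83.3% of the exon bases face the adaptor subunit gene AP1G2, which rose (0.65 ± 0.11) while the antisense gene had -0.14 ± 0.16. Of the 14 antisense genes that passed and had a tested coding gene, 7 had one that passed in the same direction, 1 one that passed in the opposite direction and 6 one that did not pass. Over all 257 pairs the coding gene passed in 20, and in 8 of these the antisense gene passed too. The difference between these shares was not tested.

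**Figure D4:**
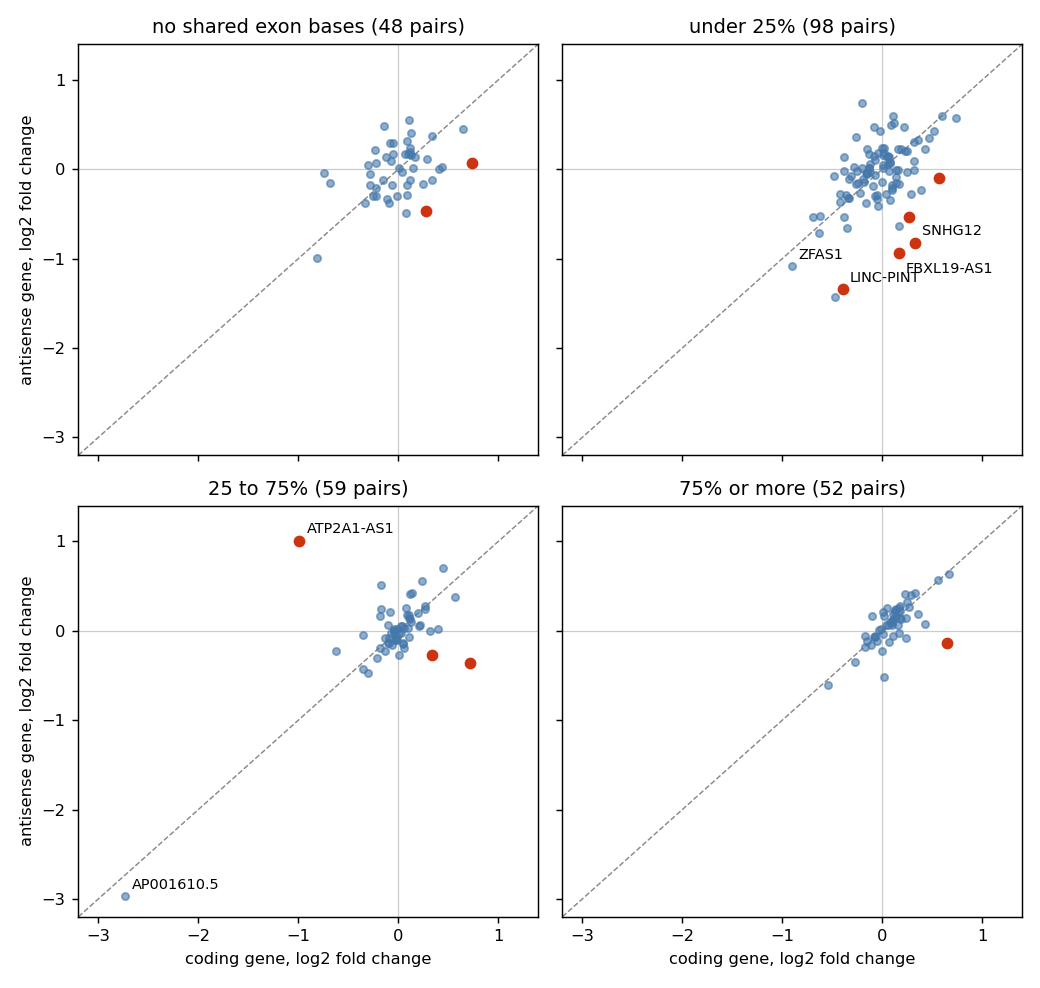
Log2 fold change of the antisense gene (vertical) against that of the coding gene on the other strand (horizontal), TFAM-OE over control, for 257 pairs in 4 panels by shared exon bases. The dashed line marks equal change and red points are the 11 pairs whose ratio passed as changed. With 75% or more shared the points lie along the line, and AP001610.5 at the lower left is the pair with MX1.

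ZFAS1 and SNHG12 belong to a list of snoRNA host genes, many of which are known as targets of translation-coupled decay. TAF1D on this list is typed protein-coding. Among the well-measured antisense genes the list had 5, of which ZFAS1 and SNHG12 passed as lower and 0 as higher. SNHG7 had a log2 fold change of -0.28 ± 0.13 (adjusted p = 0.227), SNHG21 had 0.08 ± 0.17 and SNHG10 had 0.30 ± 0.17, and the groups overlapped in each. Of the 21 tested genes of the list that are not among these, 7 passed as lower, namely GAS5, SNHG1, TAF1D, EPB41L4A-AS1, SNHG20, SNHG8 and SNHG6, and 0 as higher. The list as a whole thus had 9 lower of 26 tested, beside the 4.81% of all genes tested that passed as lower, and its median log2 fold change was -0.29 beside -0.008. The list was chosen with results of these libraries known. The members that fell ran from -1.08 in ZFAS1 to -0.44 in SNHG6. EPB41L4A-AS1 is typed lincRNA in the deposited table, so it is not among the 281.

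**Figure D5:**
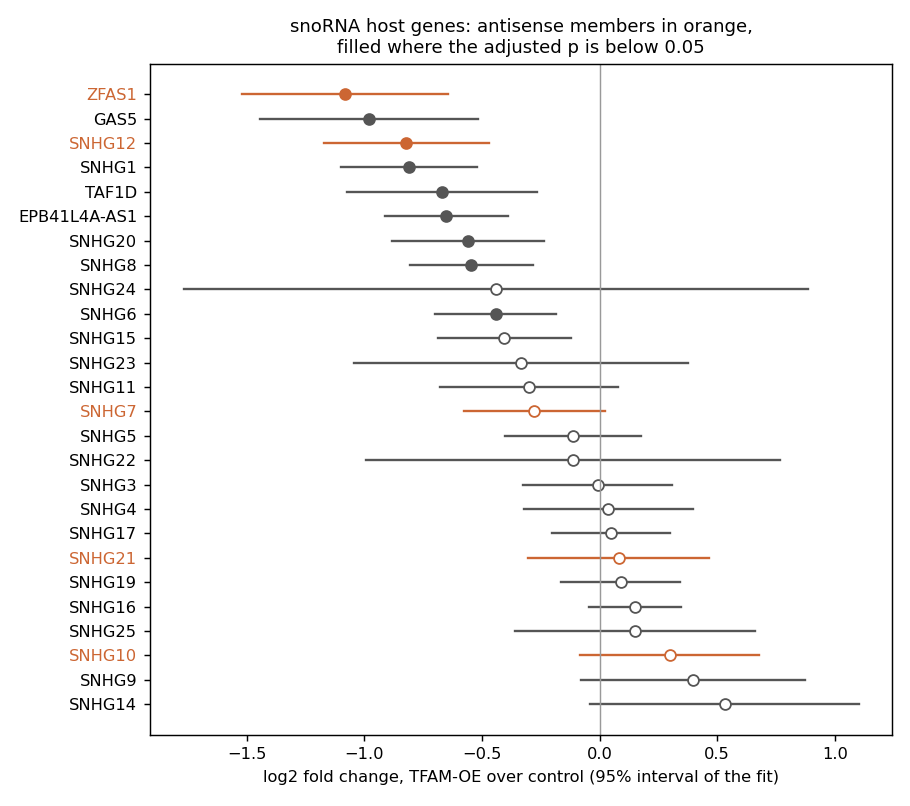
Log2 fold change, TFAM-OE over control, of the 26 tested snoRNA host genes with the 95% interval of the edgeR fit, from 3 libraries against 3. The 5 well-measured antisense genes are in orange and filled points passed the test. The 9 filled points all lie below 0.

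Of the other lists, the HOX clusters had 1 well-measured antisense gene, HOXD-AS2, whose log2 fold change was -0.20 ± 0.28 (adjusted p = 0.696). The list of X inactivation and imprinting had 1, KCNQ1OT1, which silences genes of its imprinted domain, with -0.54 ± 0.21 (adjusted p = 0.138) and overlapping groups. Its reads lay between 88 and 193 per library over a transcript of great length, at between 0.02 and 0.06 FPKM.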

How the data were processed

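Polyadenylated RNA of A549 cells was sequenced in 6 libraries, 3 per group. The authors trimmed reads with the FASTX-Toolkit, aligned them to GRCh38 with TopHat2, counted uniquely mapped reads per gene and deposited the counts, and they deposited FPKM values with 2 decimals calculated from the same reads. Which program and annotation they counted with, and whether by strand, is not given in the sources used here. Unused value columns numbered 0. The antisense genes and the gene lists were chosen with earlier results of these data known.

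The counts were tested in R (4.3.3) with edgeR (4.0.16), by the quasi-likelihood test with TMM scaling, two-sided, over 16555 genes kept by filterByExpr, with Benjamini-Hochberg adjustment. CPM values are TMM-scaled. The ratio of antisense to coding gene was tested with limma (3.58.1) and voom weights on log2 CPM with a prior count of 2. Positions and exon overlap come from GENCODE version 44, with the coding gene taken as the one that faces at least 75% of the exon bases, otherwise the one head to head within 1000 bases, otherwise the one overlapped. Sequences were read from GRCh38. FPKM implies a gene length, and it matched the exon length of that annotation within 2% for 38 of 46 antisense genes sharing 75% or more but for 32 of 81 sharing under 25% and 11 of 42 sharing none, so printed shares are less certain for the last 2 groups, which include ZFAS1, LINC-PINT, SNHG12 and FBXL19-AS1. Named are every gene that passed, the 5 of highest median FPKM, the named pairs whose coding gene passed or with the 6 smallest p of the ratio, list members and the genes beside the threshold, and, chosen after their values were seen, the pairs by position whose ratio passed. The alternatives were DESeq2 (1.42.0), limma-voom, limma on FPKM, other scalings and filters, other read thresholds, a replicate block and each library left out. The edgeR test and a form of the ratio test were tried in separate code on simulated counts. These had the same dispersion for all genes and gene pairs drawn at random, unlike the data. Figures were drawn with matplotlib (3.10.9). Correlations of the deviations of same-numbered libraries from their group means were -0.22, 0.008 and -0.27. Those of control replicate 1 with TFAM-OE replicate 3 and of control replicate 3 with TFAM-OE replicate 1 were 0.24 and 0.25. With 3 libraries a group these values cannot decide whether the numbers pair the libraries. The main fit used no replicate block.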

Additional observations from a re-analysis of the deposited data

How the results depend on the processing

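The counts of antisense genes that passed moved with the processing and with single libraries. With a replicate block, 5 passed as lower and 1 as higher, all among the 16, and the 2-fold counts and the count of named pairs stayed at 4, 1 and 2. With each library left out in turn, between 4 and 15 passed as lower, between 1 and 19 as higher, between 3 and 5 as 2-fold lower and between 0 and 1 as 2-fold higher. Without TFAM-OE replicate 3 the 16 were joined by others to 34 in all, whereas without control replicate 1, control replicate 2 or TFAM-OE replicate 2 there were 5. The shares of all genes that passed in these fits are not given here. A shift of the antisense genes alone can therefore not be told apart from one of all genes. The count that passed as higher was 13 with DESeq2, 12 with every gene that had a read, and 10 with limma-trend on log2(FPKM + 0.1) or log2(FPKM + 1). Other read thresholds changed the size of the set, to 151 antisense genes at 1200 reads and 522 at 300, beside 281 at 600. Of the 151, 5 were lower, 2 of them 2-fold, 4 were higher and 0 were 2-fold higher. Of the 522, 18 were lower, 14 higher and 8 2-fold lower, so these counts are over sets of unlike size. The 2-fold count was 2 lower with log2(FPKM + 1), and 0 higher with library size alone or with either FPKM setting, ATP2A1-AS1 lying at the threshold. Named by position, 11 pairs passed instead of 2, the setting added after the data were seen, and named pairs passing lay between 2 and 3 with each library left out. The median log2 fold change lay between -0.014 and 0.018 over the scalings. AP001610.5, LINC-PINT, FBXL19-AS1 and ATP2A1-AS1 passed in all 15 alternatives, RP11-259K5.2 in 14 and ZFAS1 in 13, and the other 10 in 8 to 11. No log2 fold change of the 16 changed sign. With 3 libraries a group, a difference under the spread of these libraries was not detectable, and antisense genes with few reads had wider errors.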

Other observations

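Of the antisense-typed genes with fewer than 600 reads, 1031 were tested, and 18 passed as lower (1.75%) and 14 as higher (1.36%), with 13 and 6 of these past 2-fold. Their median SE of the log2 fold change was 0.30, beside 0.16 over the 281 with at least 600 reads, so a change of a given size passed less readily in them.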
